A study of Mus musculus with 12 samples.

Results

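The first 2 h of hypoxia were examined for whether the nucleus and the cytoplasm of mouse endothelial cells changed their microRNAs (miRNAs) in the same way. For each miRNA the change in the nucleus (2 h minus 0 h) was set against the change in the cytoplasm (2 h minus 0 h), and their difference is called the interaction here. A positive interaction means that the ratio of nuclear to cytoplasmic level was higher at 2 h than at 0 h. The contrast rests on the 8 libraries of 0 h and 2 h, out of 12 in the series, and it was computed for all 350 miRNAs of the table, with none selected by its values.

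C166 is a single cell line, derived from endothelium of the mouse yolk sac. The groups were nucleus 2 h and nucleus 0 h, and cytoplasm 2 h and cytoplasm 0 h, with 2 libraries in each, and the labels give no genetic change in any of them. Cells of the 2 h groups were held at 1% oxygen for 2 h, and cells of the 0 h groups were grown without hypoxia in an ordinary incubator at atmospheric oxygen. Nuclei and cytoplasm were separated by lysis of the cells, and small RNA of each fraction was sequenced. The 2 replicates of a group are described as biological, but no label ties a nuclear library to the cytoplasmic library of the same dish.

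A miRNA is cut as a hairpin from its primary transcript in the nucleus, exported, and cut again in the cytoplasm, where one of the 2 arms is loaded into an Argonaute protein and guides it to messenger RNAs. Pairing is set mainly by the seed, bases 2 to 8 of the mature miRNA. The arm that is usually kept is called the guide, and the other the passenger. Mature miRNAs and Argonaute proteins also occur in the nucleus of mammalian cells. Hypoxia acts on miRNAs through hypoxia-inducible factors, of which miR-210 is the best known target, and miR-126 is the miRNA most closely tied to endothelium.

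The interaction was called for 20 miRNAs, and the sequences of those on which the results turn are shown first, with a few that share a seed with them. They are RefSeq entries on GRCm38.p6, 5′ to 3′, with the seed in capitals. Among the 350 miRNAs, 301 matched an entry, and among the 20 called ones 17 did. The 17 held 15 different seeds. The first group has the seed of miR-301a-3p, which lies in an intron of Ska2 at chr11:87113054-87113076 on the plus strand, and is shown because its family member miR-130a-3p did not pass the test.
miR-301a-3p: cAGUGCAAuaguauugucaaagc
miR-130a-3p: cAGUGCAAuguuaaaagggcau
The next group consists of passenger arms of let-7 hairpins. let-7a-1-3p and let-7c-2-3p have the same mature sequence, so reads of one cannot be told from reads of the other, and their values are not independent.
let-7f-1-3p: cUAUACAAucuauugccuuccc
let-7c-2-3p: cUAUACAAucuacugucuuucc
let-7a-1-3p: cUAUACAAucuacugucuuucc
let-7b-3p: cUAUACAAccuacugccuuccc
The passenger arms of both miR-24 hairpins, on chromosomes 13 and 8, share a seed and were both called.
miR-24-1-5p: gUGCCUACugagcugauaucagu
miR-24-2-5p: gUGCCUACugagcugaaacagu
The seed of miR-32-5p is also that of the miR-92a and miR-25 miRNAs, which are shown because their interactions lay on the other side of 0.
miR-32-5p: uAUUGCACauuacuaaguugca
miR-92a-3p+1: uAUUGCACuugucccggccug
miR-25-3p: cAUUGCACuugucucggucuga
miR-96-5p and miR-182-5p lie in one cluster on the minus strand of chromosome 6, at 30169506 to 30169528 and at 30165962 to 30165986, and their hairpins start 3528 bases apart. Counted from the 5′ end of miR-96-5p, the first 8 bases differ by C8A in miR-182-5p. They were called in opposite directions.
miR-96-5p: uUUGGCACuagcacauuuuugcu
miR-182-5p: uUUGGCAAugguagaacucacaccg
The last group holds both arms of miR-382, from an intron of Mirg in the Dlk1-Dio3 region (hairpin at chr12:109733771-109733846, plus strand), and both arms of miR-450b on the X chromosome.
miR-382-3p: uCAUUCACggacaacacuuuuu
miR-382-5p: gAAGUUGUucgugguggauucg
miR-450b-3p: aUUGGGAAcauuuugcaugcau
miR-450b-5p: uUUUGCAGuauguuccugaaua
A suffix such as +1 is part of the name in the table.

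The table held 3396602 to 4049049 reads in the 4 nuclear libraries and 6398901 to 7787926 in the 4 cytoplasmic libraries, and no value rested on fewer than 10 reads. miR-21a-5p alone took 37.4% to 49.9% of a nuclear library and 56.8% to 60.3% of a cytoplasmic library. miR-126a-3p, the endothelial marker, was present in every library, at 332 to 860 normalized counts. The epithelial miRNAs miR-200b-3p, miR-200c-3p and miR-203-3p summed to 98.2 to 121 normalized counts in nuclei at 2 h and 253 to 266 in nuclei at 0 h, and to 133 to 217 in cytoplasm at 2 h and 192 to 297 in cytoplasm at 0 h. miR-122-5p, miR-206-3p and miR-9-5p+2, which mark liver, muscle and neural cells, summed to 754 to 1025 in nuclei at 2 h, against 544 to 736 in nuclei at 0 h, and to 381 to 403 in cytoplasm at 2 h, against 373 to 491 in cytoplasm at 0 h. Most of each of these sums was miR-206-3p (250 to 926 over the 12 libraries, against 21.8 to 155 for miR-122-5p). miR-122-5p went the other way in nuclei, with 23 and 25 reads at 2 h against 39 and 29 at 0 h. Other markers looked for were not among the measured miRNAs: miR-126a-5p, miR-1a-3p, miR-133a-3p, miR-124-3p, miR-200a-3p, miR-141-3p, miR-429-3p and every haematopoietic one, such as miR-223-3p. The part of such signals in the results was not tested. All libraries are bulk RNA scaled to each other, so fewer cells of a type and less RNA per cell cannot be told apart, and no amount per cell was measured. Cytoplasm 0 h had the widest spread between its replicates (SD of the log2 difference over miRNAs 0.424, against 0.396 in nucleus 2 h, 0.362 in nucleus 0 h and 0.369 in cytoplasm 2 h), and results are therefore also given without its replicate 1. The SD cannot tell which of the 2 replicates departs. For some miRNAs and lists, leaving out another library of the contrast weakened the value more, so that setting is not a lower bound.

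Most miRNAs had mean changes of opposite sign in the nucleus and the cytoplasm at 2 h, but few of the differences passed the test after adjustment over all 350. The mean change had opposite signs for 239 of the 350 miRNAs (68.3%): 112 were higher in nuclei and lower in cytoplasm, and 127 were lower in nuclei and higher in cytoplasm. A further 41 were higher in both and 70 lower in both. Nuclear changes were wider, with an SD of 0.449 over miRNAs on the log2 scale, than cytoplasmic changes, with an SD of 0.300. Across the 350 miRNAs the nuclear and cytoplasmic changes had a Pearson r of -0.42 and a Spearman rho of -0.44, given as a description because miRNAs are not replicates and share their libraries and size factors. That relation depended most on cytoplasm 0 h replicate 1, without which the signs were opposite for 190 miRNAs and r was -0.058. Without each other library of the contrast in turn, r lay between -0.28 (nucleus 2 h replicate 1) and -0.53 (cytoplasm 0 h replicate 2).

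**Figure D1:**
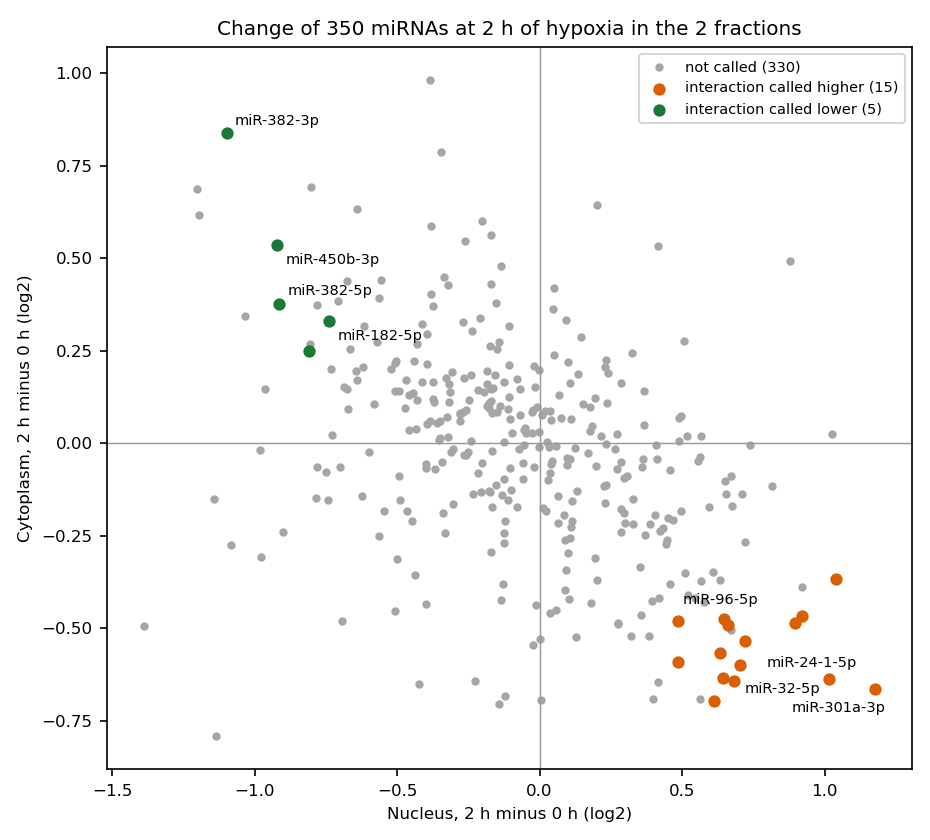
Change at 2 h against 0 h of hypoxia in the nucleus (x axis, log2) and the cytoplasm (y axis, log2) for each of 350 miRNAs, as differences of group means over 2 libraries each. The 15 miRNAs with a called higher interaction lie at the lower right and the 5 with a called lower one at the upper left, and r over all points is -0.42.

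As a stricter count, the 2 libraries of 2 h lay both above or both below the 2 libraries of 0 h for 236 miRNAs in the nucleus (67.4% of those tested) and for 106 in the cytoplasm (30.3%). For 69 miRNAs this was so in both fractions. Of these, 57 (16.3% of all tested) moved in opposite directions and 12 (3.43%) in the same direction. The 57 comprised 35 that were higher in nuclei and lower in cytoplasm, and 22 that were lower in nuclei and higher in cytoplasm. An exact permutation test of 2 libraries against 2 cannot give a two-sided p under 0.333, so for a single fraction no such test could reach 0.05. The same 0.333 is the share of miRNAs expected to separate in a fraction whose libraries do not differ by time. The cytoplasmic 30.3% does not exceed that share, so the 106 by themselves show no change. No expected share was worked out for both fractions together, and the 57 are a description.

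The interaction passed the test for 20 of 350 miRNAs (5.71%), of which 15 were higher (4.29%) and 5 lower (1.43%), at a Benjamini-Hochberg adjusted p under 0.05 from limma. In all 20 the nuclear and cytoplasmic changes had opposite signs, and in 16 of them the libraries of 2 h and 0 h did not overlap in either fraction. The 20 were picked by the difference of these same changes, which favours both traits, so these counts are only a description. The 15 higher ones had interactions of 0.97 to 1.84 on the log2 scale (median 1.30), and the 5 lower ones of -1.94 to -1.06 (median -1.29). All but let-7c-2-3p were past 2-fold. The smallest adjusted p was 0.018, no miRNA passed 0.01 together with 2-fold, 64 passed 0.10, and 91 had an unadjusted p under 0.05. The median standard error was 0.303, and the smallest interaction called was 0.97 in size.

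The calls depended on single libraries. None of the 350 interactions was called without nucleus 2 h replicate 1, nucleus 0 h replicate 2, cytoplasm 2 h replicate 2 or cytoplasm 0 h replicate 1, and 1 was called without cytoplasm 2 h replicate 1 or either nuclear library of 24 h, which enters only the estimate of the spread. By contrast, 38 were called without nucleus 0 h replicate 1, 52 without nucleus 2 h replicate 2 and 66 without cytoplasm 0 h replicate 2. A fit on the 8 libraries of 0 h and 2 h alone called 0, with 78 at an unadjusted p under 0.05 and a smallest adjusted p of 0.072. limma-voom on recovered reads called 18. Scaled to the total count of the miRNAs instead, 13 were called, of which 3 were higher and 10 lower, against 15 and 5 here. Of the 20, only 8 stayed called under that scaling. Scaled to miR-186-5p, limma called 0, with 118 at an unadjusted p under 0.05.

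**Figure D2:**
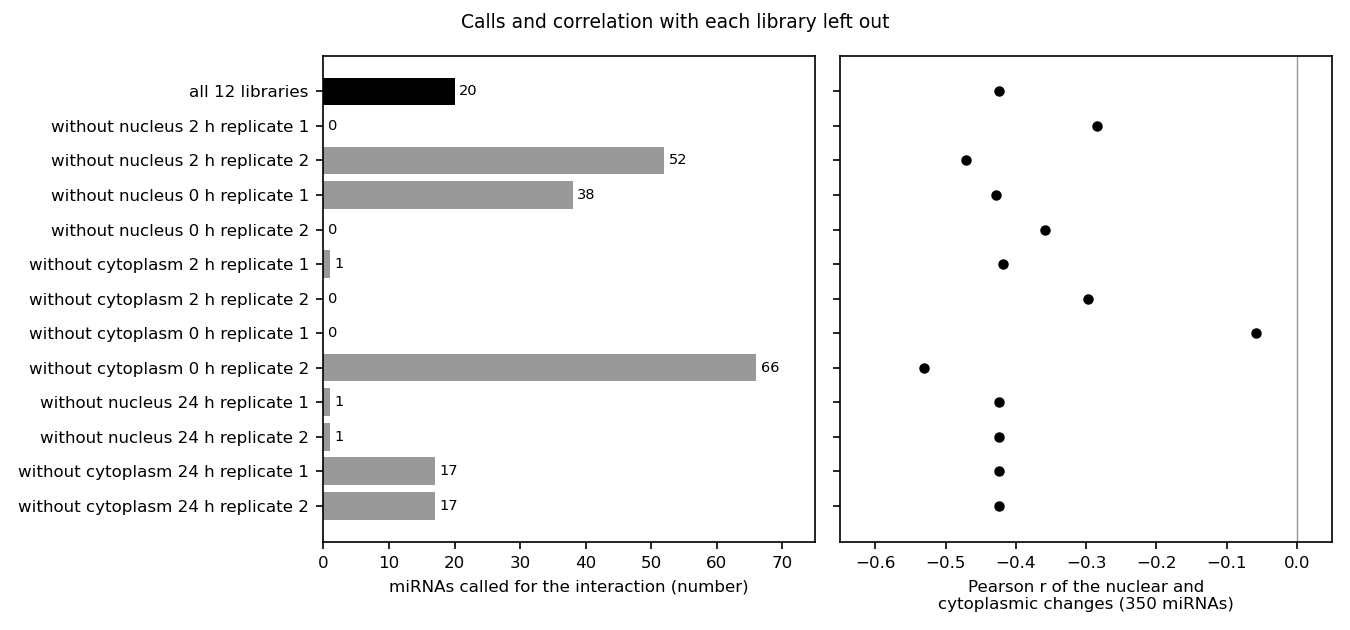
Number of miRNAs called for the interaction (left, bars) and Pearson r of the nuclear and cytoplasmic changes over 350 miRNAs (right, points) with all 12 libraries and with each left out. Calls run between 0 and 66, and r is nearest to 0, at -0.058, without cytoplasm 0 h replicate 1.

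In cytoplasm at 0 h, replicate 1 was the highest of the 4 cytoplasmic libraries for 14 of the 15 higher miRNAs and the lowest for all 5 lower ones. Replicate 2 of cytoplasm 0 h lay above both 2 h libraries for 14 of the 15, and below both for 2 of the 5. The cytoplasmic groups of 2 h and 0 h did not overlap for 30.3% of all 350. Without replicate 1 the interactions of the 20 ran between 0.76 and 1.71 for the higher and between -1.45 and -0.84 for the lower ones, with adjusted p of 0.077 to 0.22 from limma.

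Each fraction alone gave fewer firm calls. In the nucleus 16 miRNAs passed the test at 2 h (4.57%), 5 higher (1.43%) and 11 lower (3.14%), with a smallest adjusted p of 0.046 from limma, and 9 of the 16 were also among the 20. The 7 others were miR-193b-3p, which was higher, and miR-351-5p, miR-542-3p, miR-125b-5p+1, miR-25-5p, miR-200b-3p and miR-203-3p, which were lower. The number of nuclear calls varied with the setting: it was 1 at a pseudocount of 10, 0 with limma-voom and 27 when scaled to the total count. In the cytoplasm limma called 0 of 350 miRNAs, with 38 at an unadjusted p under 0.05, and limma-voom also called 0.

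miR-301a-3p, a miRNA of the miR-130/301 family that restrains an inhibitor of NF-κB in human cancer cells, had the largest positive interaction among the called. It had 147 and 123 normalized counts in nuclei at 2 h, against 62.0 and 55.9 in nuclei at 0 h. In cytoplasm it had 86.0 and 54.1 at 2 h, against 119.6 and 98.9 at 0 h. The groups did not overlap in either fraction, and the nuclear level rose (log2 change 1.18, adjusted p = 0.046 from limma) while the cytoplasmic log2 change was -0.66. The interaction was 1.84 (SE 0.34, 95% interval 1.12 to 2.57, adjusted p = 0.018 from limma). It was 1.71 without cytoplasm 0 h replicate 1 and 1.51, the lowest for a library left out, without cytoplasm 2 h replicate 2. The counts of miR-301a-3p rest on 38 to 190 reads per library. The members with its seed had smaller values that were not called, at 0.49 for miR-130a-3p and 0.53 for miR-130b-3p, and miR-301a-5p, the other and here more abundant arm of its hairpin, had -0.14.

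miR-24-1-5p, the passenger arm of a hairpin that overlaps an untranslated region of 2010111I01Rik (chr13:63301208-63301275, plus strand), had the next largest. Its nuclear level was 64.6 and 65.5 normalized counts at 2 h, against 35.8 and 27.9 at 0 h. Its cytoplasmic level was 93.1 and 88.8 at 2 h, against 190.1 and 106.1 at 0 h. All 4 groups were separate, but the high value of cytoplasm 0 h came from replicate 1, without which the interaction was 1.23 in place of 1.65 (SE 0.39, adjusted p = 0.035 from limma). The arm from the other miR-24 hairpin, miR-24-2-5p, was far more abundant. It had 5246 and 3508 normalized counts in nuclei at 2 h, against 3201 and 2937 in nuclei at 0 h, and 3843 and 3799 in cytoplasm at 2 h, against 7175 and 4611 in cytoplasm at 0 h. Its interaction was 1.07 (SE 0.30, adjusted p = 0.047 from limma). The guide miR-24-3p+1, which restrains angiogenesis in ischaemic mouse hearts, was at 0.76 and was not called (adjusted p = 0.086). Over the 9 measured arms of the miR-23/27/24 clusters, 2 were called higher and 0 lower, beside 4.29% and 1.43% of all 350. The median interaction was 0.43, against -0.07 over all 350 miRNAs, and without cytoplasm 0 h replicate 1 the median of the 9 was 0.25. The arms were split, with 5 positive and 4 negative. Without overlap in either fraction, 3 were higher in nuclei and lower in cytoplasm and 3 the reverse, beside 35 and 22 of all 350.

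The let-7 family, which holds back growth and is high in differentiated cells, gave different counts for its arms, a difference that was not tested. Of 10 passenger (3p) arms, 2 were called higher and 0 lower, beside 4.29% and 1.43% of all 350, with a median interaction of 0.73; without cytoplasm 0 h replicate 1 it was 0.64. These 10 include the pair of rows with one sequence. Of 10 guide (5p) arms, 0 were called by limma, 8 were negative and the median was -0.23, or -0.11 without that library. let-7f-1-3p had 157 and 96.6 normalized counts in nuclei at 2 h, against 67.5 and 83.8 at 0 h, and 403 and 467 in cytoplasm at 2 h, against 757 and 572 at 0 h. Both fractions were free of overlap, and the interaction was 1.30 (SE 0.34, adjusted p = 0.036 from limma). let-7c-2-3p had 1060.4 and 930.4 in nuclei at 2 h, against 693 and 724 at 0 h, and 2691 and 2541 in cytoplasm at 2 h, against 4092 and 3249 at 0 h. Its interaction of 0.97 (SE 0.25) was called at an adjusted p of 0.036, while let-7a-1-3p, the row with the identical sequence, had 0.82 and an adjusted p of 0.075 from limma. The 3p arms did not all share this direction: let-7b-3p, with the same seed, was at -0.34, let-7d-3p at -0.57 and let-7i-3p at -0.06, none of them called. let-7i-5p and let-7f-5p+1, the most abundant of the family, had interactions of -0.34 and 0.01.

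**Figure D3:**
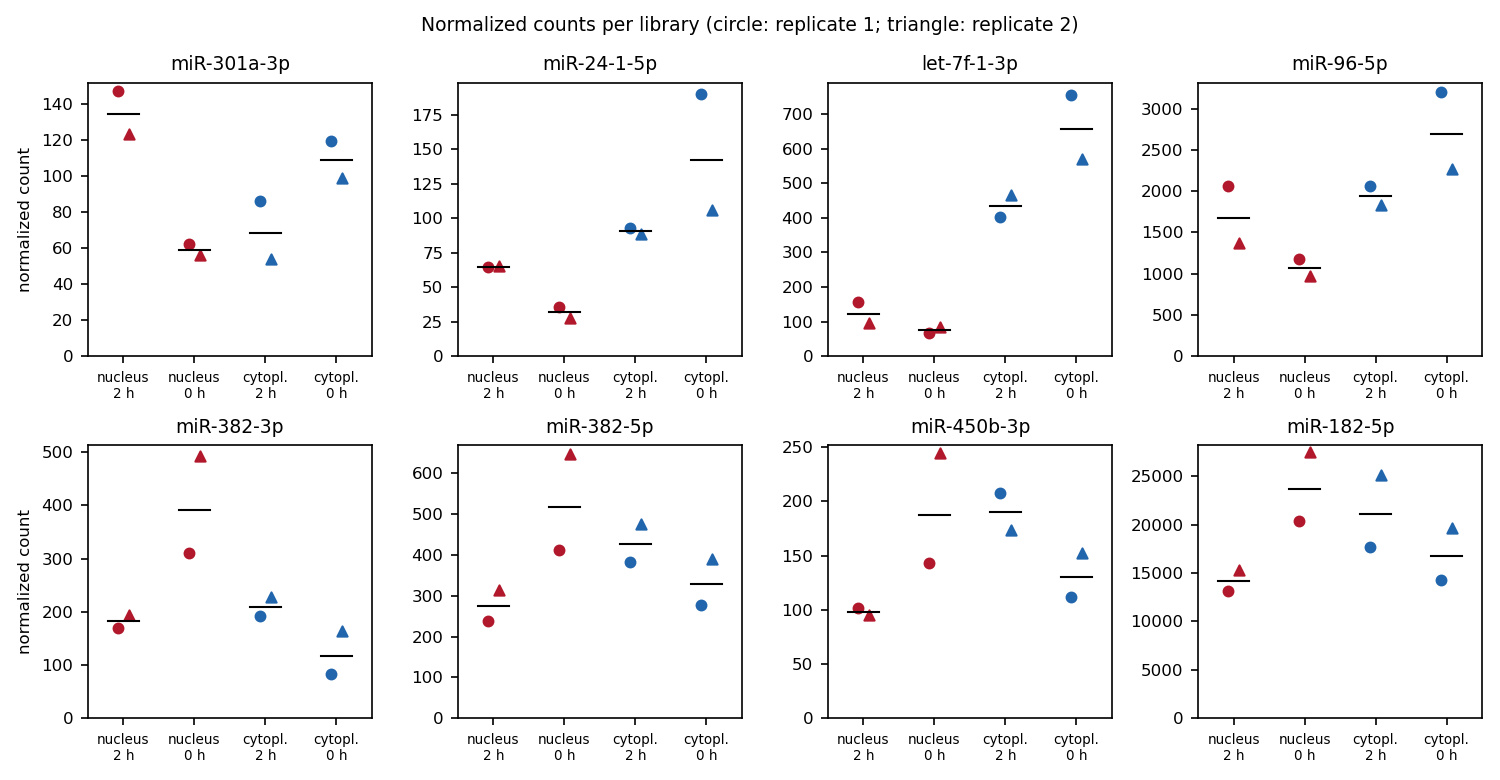
Normalized counts of 8 miRNAs in each library (y axes from 0), with nucleus 2 h, nucleus 0 h, cytoplasm 2 h and cytoplasm 0 h side by side, circles for replicate 1, triangles for replicate 2 and bars for the mean on the log2(count + 1) scale. The upper row shows miRNAs called higher, with nuclear levels of 2 h above 0 h and cytoplasmic levels of 2 h below 0 h, and the lower row those called lower; the cytoplasmic libraries overlap for miR-382-5p and miR-182-5p.

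The rodent cluster in an intron of Sfmbt2 had 17 measured members, of which 2 were called higher, 0 lower and 15 were positive, beside 4.29% called higher, 1.43% called lower and 159 of 350 positive over all miRNAs. The median was 0.46, and 0.45 without cytoplasm 0 h replicate 1. Its members are near-identical copies between which reads can be split, so single values are uncertain. miR-467b-5p had 191 and 165 normalized counts in nuclei at 2 h, against 100.6 and 89.7 at 0 h, and 146 and 153 in cytoplasm at 2 h, against 244 and 180.2 at 0 h. The interaction was 1.38 (SE 0.29, adjusted p = 0.021 from limma), with no overlap in either fraction, and the nuclear level rose (log2 change 0.90, adjusted p = 0.048). miR-467a-5p+9 followed with 1.26. The other 15 members were not called, and ranged between -0.75 for miR-669m-5p+1 and 0.72 for miR-669e-5p.

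In the lower direction, both arms of miR-382 were called. miR-382 belongs to the maternally expressed miRNAs of the imprinted Dlk1-Dio3 region, which is active in embryonic and placental tissue. miR-382-3p had 170.3 and 195 normalized counts in nuclei at 2 h, against 310.1 and 493 at 0 h. In cytoplasm it had 192 and 228 at 2 h, against 83.1 and 163 at 0 h. No group overlapped with its counterpart, the nuclear level fell by 1.10 on the log2 scale (adjusted p = 0.048 from limma), and the interaction was -1.94 (SE 0.40, 95% interval -2.78 to -1.09, adjusted p = 0.021), the largest in size of all 350. Without cytoplasm 0 h replicate 1, at 83.1 the lowest library, it was -1.45. miR-382-5p had 239 and 313 in nuclei at 2 h, against 412 and 647 at 0 h, and 382 and 476 in cytoplasm at 2 h, against 277 and 389 at 0 h. Here the cytoplasmic groups overlapped, and the interaction was -1.29 (SE 0.34, adjusted p = 0.036 from limma).

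The 38 measured members of the Dlk1-Dio3 region had a median interaction of -0.49, against -0.07 for all miRNAs, with 0 called higher, 2 called lower and 25 negative. Among all 350 miRNAs 4.29% were called higher and 1.43% lower (20 in both directions, 5.71%), and 191 were negative. The 2 calls are both arms of the miR-382 hairpin. Without cytoplasm 0 h replicate 1 the median of the 38 was -0.31. Apart from the arms of miR-382, the largest negative values were those of miR-493-5p (-1.50), on few counts, and miR-337-5p (-1.09), and neither was called. Members of the region did not move as one: miR-136-5p had an interaction of 1.00, miR-381-3p of 0.84 and miR-434-5p of 0.84, also not called.

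Neighbouring miRNAs and arms of one hairpin could differ in direction. miR-96-5p, a miRNA needed in hair cells of the inner ear, had 2065 and 1365 normalized counts in nuclei at 2 h, against 1179 and 972 at 0 h, and 2060.1 and 1826 in cytoplasm at 2 h, against 3200 and 2269 at 0 h. Its interaction was 1.12 (SE 0.29, adjusted p = 0.036 from limma). miR-182-5p, from the same cluster and known for targeting FOXO transcription factors, had 13178 and 15288 in nuclei at 2 h, against 20417 and 27484 at 0 h, and 17725 and 25163 in cytoplasm at 2 h, against 14324 and 19676 at 0 h. Its interaction was -1.07 (SE 0.29, adjusted p = 0.036 from limma), its nuclear level fell by 0.74 on the log2 scale (adjusted p = 0.048), and its cytoplasmic libraries overlapped. miR-183-5p and miR-183-3p of the cluster were at -0.70 and -0.64 and were not called.

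miR-450b-3p, from a cluster with miR-322 and miR-503 on the X chromosome (hairpin at chrX:53047997-53048078, minus strand), had 101.6 and 95.1 normalized counts in nuclei at 2 h, against 143 and 244 at 0 h. In cytoplasm it had 208 and 173 at 2 h, against 112 and 152 at 0 h. The groups were separate in both fractions and the interaction was -1.46 (SE 0.35, adjusted p = 0.035 from limma). The other arm, miR-450b-5p, had 0.86 and was not called (adjusted p = 0.075). Over the 86 hairpins with both arms measured, the arms had opposite signs in 41, and the less abundant arm had the higher interaction in 51, with a median difference of 0.29.

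The seed of miR-32-5p was shared by miRNAs on both sides of 0. miR-32-5p, from an intron of Tmem245, had 927 and 740.2 normalized counts in nuclei at 2 h, against 560 and 475 at 0 h, and 701 and 469 in cytoplasm at 2 h, against 1124 and 713 at 0 h, with an interaction of 1.33 (SE 0.32, adjusted p = 0.035 from limma). miR-92a-3p+1, which restrains vessel growth in mouse ischaemia models, had 26489 and 34266 in nuclei at 2 h, against 40402 and 52754 at 0 h, and 19568 and 23421 in cytoplasm at 2 h, against 13962 and 21120.0 at 0 h. Its interaction was -0.93 and missed the threshold (SE 0.28, adjusted p = 0.067 from limma). miR-92b-3p was at -0.84 and miR-25-3p at -0.24, neither called.

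The other called miRNAs are given by their interactions. miR-132-5p, the passenger arm of a hairpin induced by CREB, had an interaction of 1.41 and miR-331-3p, from a hairpin in an untranslated region of Vezt, one of 1.39. miR-132-5p rests on 21 to 411 reads in a library and miR-331-3p on 26 to 160. miR-425-5p (1.28), miR-218-5p+1 (1.20) and miR-214-5p (1.15) are more abundant. miR-218 comes from introns of Slit2 and Slit3, ligands that guide vessels and axons, and restrains their Robo receptors. It had 3765 and 2415 normalized counts in nuclei at 2 h, against 2068 and 1827 at 0 h, and 1952 and 1562 in cytoplasm at 2 h, against 3282 and 2039.8 at 0 h. miR-214-5p, the passenger arm of a hairpin inside the antisense transcript Dnm3os, was called while its abundant guide miR-214-3p was at -0.07. miR-30d-3p was called at 1.31 and its guide miR-30d-5p was at 0.01, and the other 4 measured 3p arms of the miR-30 family were between -0.59 and -0.14. miR-28a-3p, from an intron of Lpp, was called lower at -1.06, and miR-28a-5p was at 0.09.

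The 10 lower miRNAs next in p had adjusted p of 0.067 to 0.076 from limma, so none was called. In all 10 the nuclear change was negative and the cytoplasmic change positive. These 10 were ranked by the difference of the same changes, which favours such signs. The largest was that of miR-1291, which overlaps a small nucleolar RNA, and it was also the noisiest. It had 639 and 1251 normalized counts in nuclei at 2 h, against 2076 and 2017 at 0 h, and 49.8 and 66.0 in cytoplasm at 2 h, against 18.3 and 74.2 at 0 h, and its interaction was -1.81 (SE 0.60). The others were miR-702-3p, miR-365-3p+1, miR-337-5p, miR-409-3p, miR-351-5p, miR-92a-3p+1, miR-125a-5p, miR-433-3p and miR-542-3p.

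**Figure D4:**
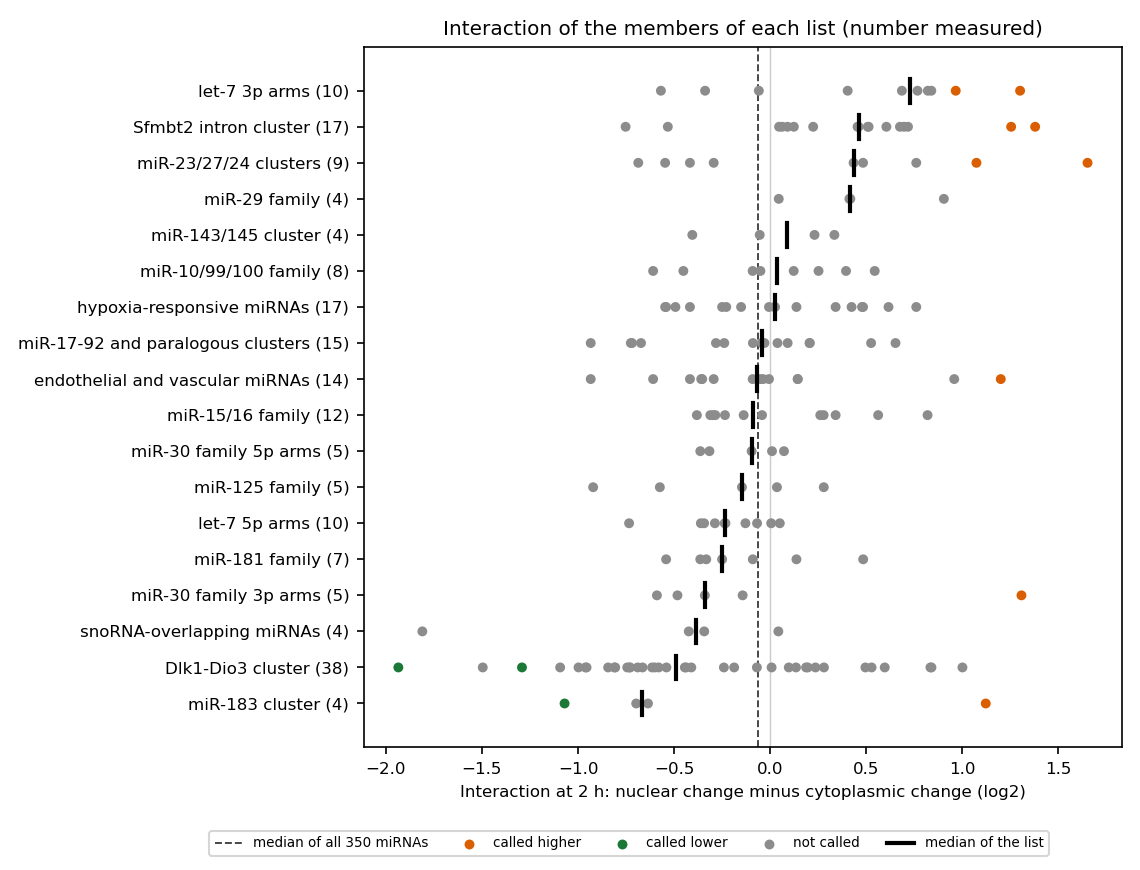
Interaction at 2 h (x axis, log2) of every measured member of 18 lists with at least 4 members, with the median of each list as a black bar and the median of all 350 miRNAs, -0.07, as a dashed line. Lists are ordered by their median, between 0.73 for let-7 3p arms and -0.67 for the miR-183 cluster.

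Lists of miRNAs known for hypoxia or endothelium had shares of calls near that of all miRNAs (5.71%). Of 17 hypoxia-responsive miRNAs, 0 were called by limma in either direction, and their median of 0.02 took either sign with the scaling, between -0.37 and 0.16. miR-210-3p had 2448 and 1906 normalized counts in nuclei at 2 h, against 1684 and 1758 at 0 h, and 1143 and 1099 in cytoplasm at 2 h, against 1284 and 1206 at 0 h. The groups did not overlap in either fraction, but the interaction of 0.48 (SE 0.22, 95% interval 0.01 to 0.94) had an adjusted p of 0.18 from limma. miR-21a-5p, the most abundant miRNA, had an interaction of 0.42 (SE 0.27, adjusted p = 0.31). Of 14 endothelial and vascular miRNAs, 1 was called higher, miR-218-5p+1, and the median was -0.07, which also took either sign with the scaling. miR-126a-3p had 674 and 457 in nuclei at 2 h, against 397 and 332 at 0 h, and 575 and 513 in cytoplasm at 2 h, against 860.4 and 557 at 0 h. Its interaction of 0.96 (SE 0.32) was not called, at an adjusted p of 0.076 from limma.

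Among the larger families, the miR-17-92 and related clusters (15 measured) had a median of -0.04, the miR-15/16 family with miR-322 and miR-503 (12 measured) of -0.09 and the miR-10/99/100 family (8 measured) of 0.04, with 0 called by limma in each, and each took either sign with the scaling. Smaller lists lay farther from the median of all miRNAs, also with 0 calls by limma. Their medians were 0.42 for the miR-29 family (4 measured), -0.25 for the miR-181 family (7 measured) and -0.38 for miRNAs that overlap small nucleolar RNAs (4 measured). Without cytoplasm 0 h replicate 1 these were 0.38, -0.02 and -0.14. The last of them was -0.05 without cytoplasm 2 h replicate 2. The 3 epithelial miRNAs had a median of -0.90, which was -0.44 without cytoplasm 0 h replicate 1, and 0 calls of the interaction, although miR-200b-3p fell in the nucleus by 1.39 on the log2 scale (adjusted p = 0.046 from limma).

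The interaction bore little relation to measured properties of the sequence. Over the 301 miRNAs with a sequence, its Pearson r was -0.06 with GC content, 0.09 with the share of U and below 0.01 in size with length, given as descriptions. Ordered by abundance, 1 of the 87 miRNAs with the lowest counts was called, 9 of the next 88, 6 of the next 87 and 4 of the 88 with the highest. The median SE was 0.435 among the lowest 87 and 0.242 among the highest 88, so differences of the same size were less detectable among rare miRNAs.

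At 0 h all 15 miRNAs with a higher interaction were lower in nuclei than in cytoplasm, with log2 ratios of -3.35 to -0.41, and all 5 with a lower one were higher in nuclei, at 0.50 to 1.74. At 2 h the ratios were -2.05 to 0.97 for the 15 and -0.94 to 0.15 for the 5. The ratio at 0 h is itself a term of the interaction, so this layout is a description. The libraries of 24 h do not enter the contrast, only the spread, and there the ratios were -1.40 to 0.71 for the 15 and -1.19 to -0.21 for the 5. By time, miR-301a-3p had log2 ratios of nucleus over cytoplasm of -0.87 at 0 h, 0.97 at 2 h and 0.71 at 24 h. miR-382-3p had 1.74, -0.20 and -1.19 at these times, and let-7f-1-3p had -3.11, -1.81 and -0.79. A change at 24 h would be measured against the same 0 h libraries as the change at 2 h, so the levels are given side by side and no comparison is drawn.

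**Figure D5:**
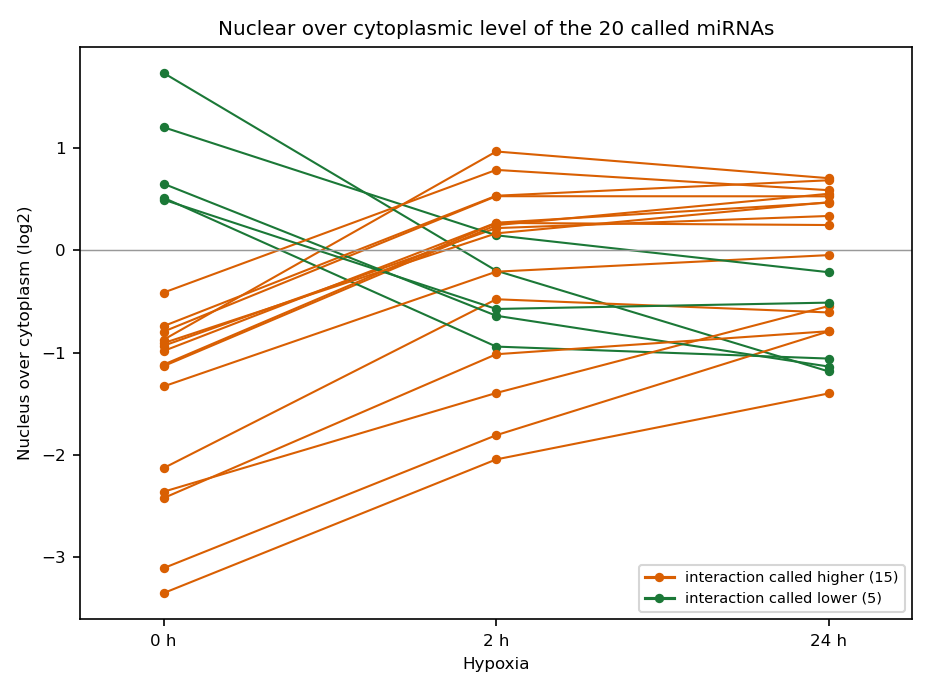
Log2 ratio of nuclear over cytoplasmic level (y axis) at 0, 2 and 24 h of hypoxia for the 20 miRNAs called at 2 h, each a line through the differences of group means of 2 libraries. The 15 called higher lie below 0 at 0 h and the 5 called lower lie above 0 at 0 h; both changes share the 0 h libraries.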

How the data were processed

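RNA of nuclear and cytoplasmic fractions was sequenced in 12 libraries (6 groups of 2). The authors made the values with bcl2fastq, Trimmomatic and Bowtie2 2.1.0, counted reads per miRBase miRNA, dropped those with low reads, and divided each library by a DESeq2 size factor. The deposited values are a signal: these normalized counts, for 350 miRNAs. The 30 deposited columns of the authors' own comparisons were not used. Per-library reads, recovered as whole numbers, were 3396602 to 7787926 in the 8 libraries of the contrast.

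The contrast was fitted on log2(normalized count + 1), which understates changes of rare miRNAs, with limma 3.58.1 (R 4.3.3), a variance trend and 6 group means over 12 libraries, with Benjamini-Hochberg adjustment over 350 miRNAs and a threshold of 0.05. The 24 h libraries enter the spread only. The fit was run on simulated data with planted interactions and independent noise. Replicate differences shared across miRNAs or groups were not simulated, so that run does not measure the error rate in these data. Count tests were not run, since the lowest values hold 10 reads and do not show the size of 1 read directly. limma-voom was run on the recovered reads.

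The members, lists and tests were chosen with earlier results of these data known. Named are, per direction, the 15 miRNAs of smallest p, called miRNAs without overlap, up to 4 members of each of 20 lists with the largest interaction, the 10 most abundant miRNAs, miR-210-3p, miR-186-5p, and other arms of these hairpins; let-7b-3p, let-7d-3p, miR-130a-3p, miR-130b-3p, miR-136-5p, miR-193b-3p, miR-381-3p, miR-434-5p and miR-92b-3p were chosen after their values were seen. Alternatives were a pseudocount of 10, a minimum mean of 100, 5 scalings (TMM trimmed by 30% and 5%), 8 libraries only, replicate blocks, no variance trend, limma-voom, other thresholds, and leaving out each library; a restriction to 301 miRNAs with a sequence and a GC term were added after seeing the data. Sequences and positions are from RefSeq and GENCODE on GRCm38.p6. P-values measure the spread between the 2 libraries of a group, pooled over the 6 groups (6 residual degrees of freedom). That spread is moderated by the trend over all miRNAs, which adds 11.1 prior degrees of freedom. Summaries used pandas 2.3.3 under Python 3.11.15, and plots matplotlib 3.10.9.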

Additional observations from a re-analysis of the deposited data

Results flagged for a closer look

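The change at 2 h differed between the nucleus and the cytoplasm by the test of that difference for 20 miRNAs (limma, adjusted p under 0.05). The log2 difference was higher in the nucleus for miR-301a-3p (1.84), miR-24-1-5p (1.65), miR-132-5p (1.41), miR-331-3p (1.39), miR-467b-5p (1.38), miR-32-5p (1.33), miR-30d-3p (1.31), let-7f-1-3p (1.30), miR-425-5p (1.28), miR-467a-5p+9 (1.26), miR-218-5p+1 (1.20), miR-214-5p (1.15), miR-96-5p (1.12), miR-24-2-5p (1.07) and let-7c-2-3p (0.97). It was lower for miR-382-3p (-1.94), miR-450b-3p (-1.46), miR-382-5p (-1.29), miR-182-5p (-1.07) and miR-28a-3p (-1.06). None of the 20 passed without cytoplasm 0 h replicate 1, nucleus 2 h replicate 1, nucleus 0 h replicate 2 or cytoplasm 2 h replicate 2. In 16 of the 20 the libraries do not overlap in either fraction, which by itself fixes the sign when any 1 library is left out.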

How the results depend on the processing

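Calls of the interaction by limma, 20 in the fit above, were 13 when scaled to the total count, of which 8 were among the 20. They were 0 when scaled to miR-186-5p (118 at an unadjusted p under 0.05), 0 with the 8 libraries alone and 2 with no variance trend. At an adjusted p under 0.01 with 2-fold they were 0, and at 0.10 they were 64. They were 14 to 25 with a pseudocount of 10, a minimum mean of 100, the 3 other scalings, limma-voom, the miRNAs with a sequence and the GC term. Leaving out 1 library gave 0 to 66 calls of the interaction, 0 to 49 of the nuclear change (16 in all libraries), 0 to 13 of the cytoplasmic change (13 without cytoplasm 0 h replicate 2), 190 to 242 opposite signs and an r of -0.53 to -0.058. Nuclear calls were 1 with a pseudocount of 10, 27 scaled to the total count, 5 scaled to that total without miR-21a-5p, 4 with TMM factors, 3 with size factors within each fraction, and 0 with a minimum mean of 100, scaling to miR-186-5p, the 8 libraries, no variance trend or limma-voom. Scaling to miR-186-5p moved the median interaction of all miRNAs from -0.07 to -0.45 and scaling to the total count moved it to -0.19, so values of lists are to be read against these. The replicate numbers were not taken to pair the samples, since no label says so and replicate differences correlated between nucleus and cytoplasm by 0.24 at 2 h, 0.07 at 0 h and 0.09 at 24 h; across times they correlated by 0.48 between nucleus 2 h and cytoplasm 0 h and by 0.32 between cytoplasm 2 h and cytoplasm 0 h. Over miRNAs the replicate difference correlated with the interaction, which shares its libraries, by 0.63 in cytoplasm 0 h, 0.53 in nucleus 2 h, 0.44 in nucleus 0 h and 0.21 in cytoplasm 2 h. With the number as a replicate block, 29 interactions and 29 nuclear changes were called, and with a block per number and time 63 interactions. Depth limits rare miRNAs, and with 2 libraries a group every value rests on 6 residual degrees of freedom. Much of the spread behind each p is borrowed from other miRNAs through the variance trend.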
